A study of Mus musculus with 6 samples.

Results

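The genes described here encode 10 transcription factors of the heart muscle programme, the homeobox gene Nkx2-5, the zinc-finger genes Gata4 and Gata6, the T-box genes Tbx5 and Tbx20, the basic helix-loop-helix genes Hand1 and Hand2, and the MADS-box genes Mef2a, Mef2c and Mef2d. They were chosen by gene name, and all 10 were found among the 46452 genes of the deposited expression table. RNA came from hearts of mice aged 10 days, 3 libraries labelled Nat10 flox/flox (loxP-flanked alleles of the RNA acetyltransferase gene Nat10) and 3 labelled Nat10-CKO (a conditional knockout of that gene). The labels call them independent biological replicates, and they state neither the Cre driver nor the deleted exons. Levels are in FPKM, read counts scaled both to the length of a gene and to the size of its library, and comparisons between genes hold only as far as the deposited gene lengths do.

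These factors bind the enhancers and promoters of heart genes, often side by side, and each binds those of several of the others. NKX2-5, GATA4, TBX5 and MEF2C act together from the first heart muscle cells onward, while TBX20, GATA6 and the HAND factors are also made in endocardial, valve, epicardial or outflow tract cells. In the heart after birth GATA4 and the MEF2 factors carry signals from calcium-dependent enzymes and kinases to the genes of muscle growth.

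Before any result, the targeted gene and the tissue were checked. Nat10 lay at 3.75, 4.18 and 4.71 FPKM in Nat10 flox/flox hearts and at 8.28, 8.66 and 10.2 FPKM in those labelled Nat10-CKO. Nat10 RNA counted over the whole gene was thus higher, not lower, under the knockout label. Values by exon are not given, so this level does not tell whether exons were deleted. Every direction below is that of libraries carrying the Nat10-CKO label. The 10 cardiomyocyte markers were present throughout (summed 22472 to 27271 and 14861 to 24251 FPKM), and the ventricular Myl2 was at least 746.5 FPKM. Of the 8 atrial markers, Myl7, Sln and Bmp10 were at or near 0 (Myl7 at most 0.552 FPKM), while Nr2f1 (0.512 to 1.72 FPKM), Nr2f2 (2.15 to 3.75 FPKM), Stard10 (4.39 to 14.1 FPKM) and Dkk3 (1.75 to 11.4 FPKM) were higher. Myl4 was listed at 0.0755 to 0.143 FPKM in flox/flox and 0.236 to 0.388 FPKM in Nat10-CKO hearts. Its low FPKM came with a deposited length of 16315 bases. It had 39 to 83 reads per flox/flox library and 142 to 220 per Nat10-CKO library. Replicate 1 of Nat10 flox/flox was set apart by the second principal component (14.7% of variance) and held transcripts of nerve cells, such as Prph at 116.6 FPKM against at most 0.185 FPKM elsewhere. Replicate 1 of Nat10-CKO was set apart by the third (10.5%). Reads assigned to genes numbered 31155521 to 38051266 per library.

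Sequence around the transcription start is shown for 3 genes that were higher in the Nat10-CKO libraries and, for contrast, for Mef2a, which was not. The windows are RefSeq promoters on GRCm38.p6, 250 bases before and 50 after the start, printed 5′ to 3′ along the gene. In Nkx2-5 (chr17:26841516-26841815, minus strand), Tbx20 (chr9:24774254-24774553, minus strand) and Mef2a (chr7:67372809-67373108, minus strand), capitals mark matches on either strand to the GATA factor site GATAA, the NKX2-5 element TNAAGTG, the T-box half-site AGGTGT, the E-box CANNTG (which can overlap the NKX2-5 element), the MEF2 site or the CArG box of SRF. In Hand2 (chr8:57320733-57321032, plus strand) capitals mark instead the bases that lie between the deposited models of Hand2 and its divergent neighbour Hand2os1.
Nkx2-5: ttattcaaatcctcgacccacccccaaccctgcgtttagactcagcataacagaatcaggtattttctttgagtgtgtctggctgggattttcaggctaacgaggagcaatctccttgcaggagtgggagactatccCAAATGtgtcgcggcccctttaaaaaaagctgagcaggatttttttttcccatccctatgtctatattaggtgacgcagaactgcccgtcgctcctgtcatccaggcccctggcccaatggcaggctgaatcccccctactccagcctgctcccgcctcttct
Tbx20: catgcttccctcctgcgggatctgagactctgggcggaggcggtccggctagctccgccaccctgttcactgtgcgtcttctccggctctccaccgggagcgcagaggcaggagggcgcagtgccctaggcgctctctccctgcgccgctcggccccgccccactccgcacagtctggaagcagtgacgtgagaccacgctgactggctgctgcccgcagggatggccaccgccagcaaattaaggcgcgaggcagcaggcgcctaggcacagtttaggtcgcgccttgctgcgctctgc
Mef2a: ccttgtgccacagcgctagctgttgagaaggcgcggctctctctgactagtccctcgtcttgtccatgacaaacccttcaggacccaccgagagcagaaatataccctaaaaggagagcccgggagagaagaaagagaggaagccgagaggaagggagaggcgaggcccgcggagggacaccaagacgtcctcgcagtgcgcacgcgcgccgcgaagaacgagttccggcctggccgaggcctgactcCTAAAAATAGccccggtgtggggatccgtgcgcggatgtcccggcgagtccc
Hand2: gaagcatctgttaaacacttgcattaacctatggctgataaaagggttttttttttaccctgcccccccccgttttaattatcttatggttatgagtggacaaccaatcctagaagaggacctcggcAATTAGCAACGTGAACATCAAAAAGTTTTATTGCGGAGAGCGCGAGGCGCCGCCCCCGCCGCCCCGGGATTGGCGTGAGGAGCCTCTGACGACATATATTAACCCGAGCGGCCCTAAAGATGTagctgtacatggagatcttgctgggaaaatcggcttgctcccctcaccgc

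A promoter was found in that table for 6 of the 10 genes, in 8 windows. Nkx2-5 held 1 E-box and no other of these motifs, and Tbx20 held none. E-boxes occur in 72.3% of the 32851 promoters searched, GATAA in 25.4%, AGGTGT in 13.7% and TNAAGTG in 11.5%. The Mef2a window held a complete MEF2 site, CTAAAAATAG, starting 2 bases before the annotated start, a motif found in 1.86% of promoters (the CArG box in 1.63%). Outside the capitals, the Hand2 window held 2 matches to GATAA and 2 E-boxes. A match is a description of letters in the window, and none of these windows was measured for binding.

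Nkx2-5, Gata4, Tbx20, Hand2 and Gata6 were higher in the libraries labelled Nat10-CKO, and none of the 10 genes was called lower. Nkx2-5 was 3.95-fold, Gata4 3.05-fold, Tbx20 2.21-fold, Hand2 2.02-fold and Gata6 1.39-fold higher as ratios of mean FPKM. The 3 Mef2 genes and Tbx5 did not pass the test, and Hand1 was too low to test. The test was limma on log2(FPKM + 1), two-sided, over the 11996 genes with a mean of at least 1 FPKM, called at an adjusted p under 0.05. The 9 tested genes were above 1 FPKM in every library, so none entered through a single group. Of them 5 (55.6%) were called higher, beside 24.4% of all tested genes, and 0 were called lower, beside 16.0%; calls in either direction made up 40.5% of all tested genes. Their median log2 fold change was 0.46, beside 0.035 over all tested genes. In 6 of the 9, Mef2d included, the groups did not overlap and the Nat10-CKO libraries were higher, which was so for 31.5% of all tested genes.

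**Figure D1:**
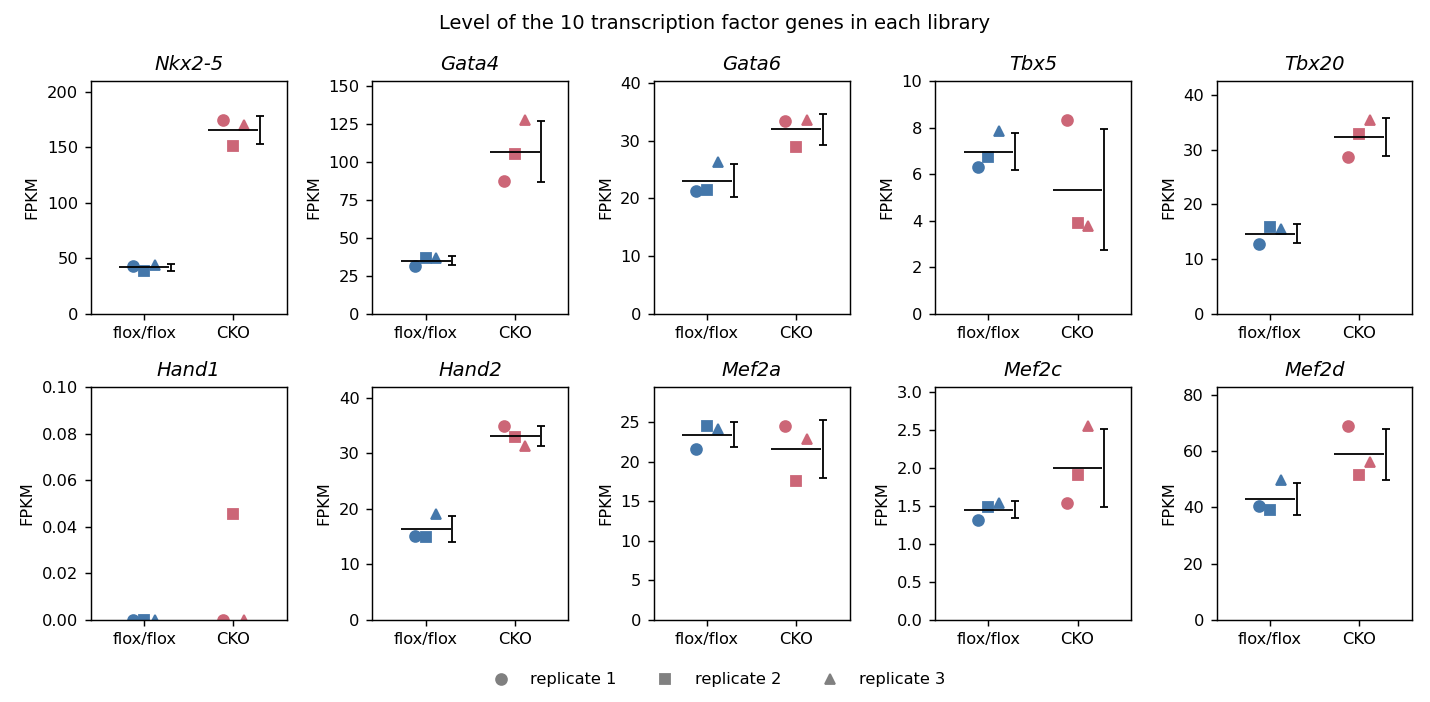
Level in FPKM (vertical axes, each from 0) of each gene in the 3 Nat10 flox/flox and the 3 Nat10-CKO libraries. Points are libraries, with shape for the replicate number, horizontal lines are group means and bars are SD (not drawn for Hand1, whose only value above 0 is 0.0455 FPKM); Nkx2-5 and Gata4 separate most widely, and in Tbx5 replicate 1 of Nat10-CKO lies above the other 2.

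Nkx2-5 (gene ID 18091, GRCm39 chromosome 17, 27057638 to 27063962, minus strand) encodes the homeodomain factor whose loss in mice stops heart looping. It measured 43.4, 38.4 and 44.0 FPKM in Nat10 flox/flox and 174.7, 151.5 and 170.4 FPKM in Nat10-CKO. All 3 Nat10-CKO libraries thus lay far above the flox/flox libraries, and the spread within each group was small (CV 7.28% and 7.45%). Averages were 41.9 ± 3.05 and 165.5 ± 12.3 FPKM (mean ± SD, n = 3 per group), with a log2 fold change of 1.96 ± 0.12 (SE, limma adjusted p = 0.000194). Ranked by log2 fold change it was number 158 of the 11996 tested genes. Leaving out any 1 library gave 1.90 to 2.02.

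Gata4 (gene ID 14463, chromosome 14, 63436363 to 63509161, minus strand) encodes the zinc-finger activator of many sarcomere and natriuretic peptide genes. It was 31.6, 37.0 and 36.5 FPKM in flox/flox hearts and 87.3, 105.6 and 128.0 FPKM in Nat10-CKO hearts. The lowest Nat10-CKO library was above the highest flox/flox library by more than the spread within either group. Means were 35.0 ± 2.95 and 107.0 ± 20.4 FPKM, a log2 fold change of 1.57 ± 0.16 (SE, limma adjusted p = 0.000769).

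Its paralogue Gata6 (gene ID 14465), which recognises the same DNA motif, had a smaller fold change. It was 21.3, 21.5 and 26.4 FPKM in flox/flox hearts and 33.4, 28.9 and 33.7 FPKM in the Nat10-CKO libraries. The groups did not overlap, but flox/flox replicate 3 and Nat10-CKO replicate 2 came close to each other. Means were 23.1 ± 2.89 and 32.0 ± 2.68 FPKM, with a log2 fold change of 0.46 ± 0.13 (SE, limma adjusted p = 0.0279). This call was lost without flox/flox replicate 1 (adjusted p = 0.08) or 2 (0.0985), without Nat10-CKO replicate 3 (0.0734), and under every rescaling tried (0.0774 to 0.178).

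The GATA pair was also described by the share of each gene, which did not pass its test. The share of Gata4 in the summed FPKM of Gata4 and Gata6 was 59.7%, 63.3% and 58.0% in flox/flox hearts and 72.3%, 78.5% and 79.2% in Nat10-CKO hearts. A share within a library does not depend on how libraries were scaled. The difference of 16.3 percentage points had an exact permutation p of 0.1 (two-sided, adjusted p = 0.125 over the 5 shares compared), and 0.1 is the smallest p that 3 against 3 libraries allow.

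Of the T-box genes, Tbx20 passed the test and Tbx5 did not. Tbx20 (gene ID 57246, chromosome 9, 24632108 to 24685599, minus strand), needed in mice for heart muscle growth and for adult heart function, was 12.7, 15.8 and 15.4 FPKM in flox/flox hearts and 28.7, 32.8 and 35.5 FPKM in the Nat10-CKO libraries. Each Nat10-CKO library was above each flox/flox library. Means were 14.6 ± 1.68 and 32.3 ± 3.43 FPKM, with a log2 fold change of 1.09 ± 0.13 (SE, limma adjusted p = 0.00122).

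Tbx5 (gene ID 21388, chromosome 5, 119934581 to 120023285, plus strand), the gene of Holt-Oram syndrome and an activator of atrial and conduction genes, was 6.28, 6.74 and 7.84 FPKM in the flox/flox libraries. It was 8.33, 3.89 and 3.79 FPKM in the Nat10-CKO libraries. Nat10-CKO replicate 1 was thus the highest of the 6 libraries and the other 2 were the lowest, with a within-group CV of 48.6%. The log2 fold change was -0.40 ± 0.26 (SE, 95% interval -1.03 to 0.24, limma adjusted p = 0.271). Without Nat10-CKO replicate 1 it was -0.71 and passed (limma adjusted p = 0.00519), where 16.0% of all tested genes were called lower. It also passed with array weights (-0.68, limma adjusted p = 0.00495), where 25.1% of all tested genes were called lower.

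In the same library the 8 epicardial markers summed to 16.3 FPKM, against 8.18 and 6.23 FPKM in the other Nat10-CKO libraries and 6.24 to 7.21 FPKM in the flox/flox libraries. Within that list Aldh1a2 was 10.3 FPKM there against 2.91 to 5.44 FPKM elsewhere, and Krt19 was 3.97 FPKM against 0.208 to 1.34 FPKM. Wt1 was 2.07 FPKM there against 1.80 to 3.43 FPKM, Upk3b, Msln and Lrrn4 were at 0 there and at most 0.119 FPKM elsewhere, and Upk1b and Muc16 were at 0 in all 6 libraries. The part of these cells in the Tbx5 values was not tested. Tbx20 took 66.9%, 70.1% and 66.3% of the summed FPKM of the T-box pair in the flox/flox hearts and 77.5%, 89.4% and 90.3% in Nat10-CKO hearts (exact permutation p = 0.1, two-sided, adjusted p = 0.125). That share was higher in each Nat10-CKO library, replicate 1 included, than in any flox/flox library.

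Hand2 (gene ID 15111, chromosome 8, 57774018 to 57777552, plus strand), needed in mice for the right ventricle, was 15.0, 15.0 and 19.0 FPKM in the flox/flox libraries. It was 34.9, 33.0 and 31.3 FPKM in the Nat10-CKO libraries, with no overlap and the tightest spread of the tested members in that group (CV 5.41%). Means were 16.4 ± 2.31 and 33.1 ± 1.79 FPKM, with a log2 fold change of 0.98 ± 0.12 (SE, limma adjusted p = 0.00147). Sympathetic nerve cells also express Hand2, and the 15 markers of these cells summed to 216.9 FPKM in flox/flox replicate 1 against 4.81 to 10.6 FPKM in the other libraries. Their part in the Hand2 levels was not tested. Without that library the log2 fold change was 0.93 (limma adjusted p = 0.00721).

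Hand2os1, the long noncoding RNA also called Upperhand, which in mice is transcribed away from Hand2 out of a shared promoter, began 123 bases from the start of Hand2 in the deposited models. Those are the capitals of the Hand2 sequence (GRCm39 chromosome 8, 57773895 to 57774017). Its level was 31.1, 31.5 and 31.7 FPKM in flox/flox hearts and 52.9, 35.1 and 48.4 FPKM in the Nat10-CKO libraries. The log2 fold change of 0.50 ± 0.16 (SE) passed narrowly (limma adjusted p = 0.0483), and the call was lost with any library left out other than Nat10-CKO replicate 2 (adjusted p = 0.0878 to 0.12) and under every rescaling tried (0.144 to 0.263). The ratio of Hand2 to Hand2os1 was 0.484, 0.476 and 0.599 in flox/flox hearts and 0.66, 0.94 and 0.648 in Nat10-CKO hearts, without overlap. It was chosen after the values were seen, so it is given without a test.

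The paralogue Hand1 (gene ID 15110, chromosome 11, 57719539 to 57722973, minus strand), which marks the embryonic left ventricle, was close to absent from these libraries. It had 3 reads in Nat10-CKO replicate 2 (0.0455 FPKM) and 0 reads in the other 5. A count of 0 there allows up to 3 reads, or 0.0388 to 0.0499 FPKM per library, for counting error only. No difference was detectable at this depth.

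The 3 Mef2 genes encode MADS-box factors that bind the same A/T-rich site and that are held back by class IIa histone deacetylases. None passed the test. Mef2d (gene ID 17261, chromosome 3, 88049248 to 88079398, plus strand) was 40.4, 39.1 and 49.5 FPKM in flox/flox hearts and 68.9, 51.5 and 56.1 FPKM in the Nat10-CKO libraries. The groups did not overlap, yet flox/flox replicate 3 and Nat10-CKO replicate 2 were close. The log2 fold change was 0.44 ± 0.15 (SE, 95% interval 0.073 to 0.81, limma adjusted p = 0.06), and the adjusted p was 0.0535 to 0.371 under the alternatives.

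Mef2a (gene ID 17258, chromosome 7, 66880911 to 67026435, minus strand) was 21.6, 24.5 and 24.1 FPKM in flox/flox hearts and 24.5, 17.5 and 22.9 FPKM in the Nat10-CKO libraries. The groups overlapped, with Nat10-CKO replicate 2 the lowest of all. The log2 fold change was -0.12 ± 0.14 (SE, 95% interval -0.47 to 0.23, limma adjusted p = 0.537). It turned to 0.019 without Nat10-CKO replicate 2, and it was -0.37 with an adjusted p of 0.0226 with array weights.

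Mef2c (gene ID 17260, chromosome 13, 83652136 to 83815198, plus strand) was listed at 1.32, 1.49 and 1.54 FPKM in flox/flox hearts and at 1.53, 1.90 and 2.55 FPKM in the Nat10-CKO libraries. The groups met at replicate 1 of Nat10-CKO. The log2 fold change was 0.28 ± 0.15 (SE, 95% interval -0.090 to 0.64, limma adjusted p = 0.193), on a scale that understates changes of low genes. It was 0.43 on the recovered reads (voom and limma, adjusted p = 0.11).

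The low listed levels came with a long gene model and not with few reads. Mef2c had 2658 to 4889 reads per library, more than Tbx5 (725 to 1729) or Hand2 (1062 to 2877). The deposited length of Mef2c was 56354 bases, number 19 in length among 22186 protein-coding genes, against 7125 bases for its canonical transcript in GENCODE M39 on the same build, a ratio of 7.91. For the other 9 genes the deposited length was 0.719 to 1.83 times the canonical one. Spread over the canonical length instead, the same Mef2c reads come to 11.5 FPKM in the flox/flox and 15.8 FPKM in the Nat10-CKO group means. No source used here says how gene length was defined, and the fold changes do not depend on it.

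**Figure D2:**
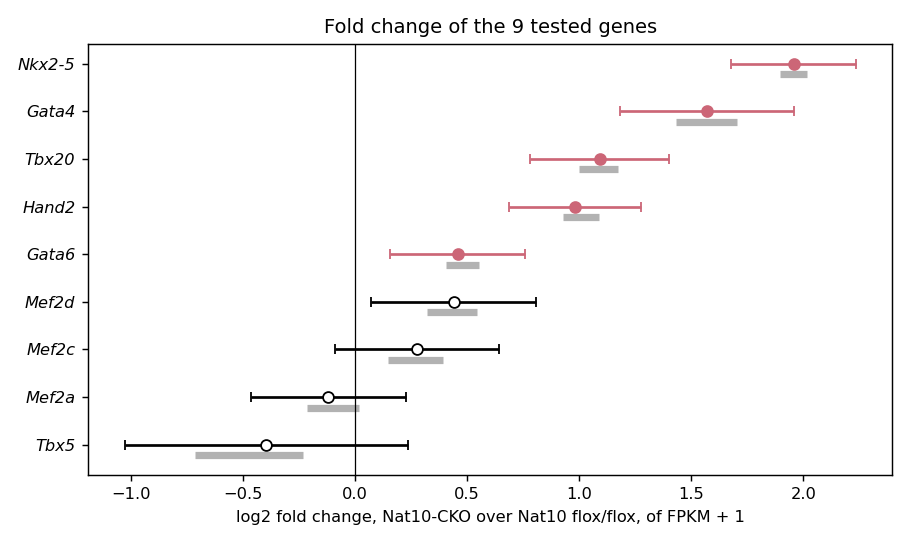
Log2 fold change of FPKM + 1, Nat10-CKO over Nat10 flox/flox, for the 9 tested genes (limma). Points with bars are estimates with 95% intervals, filled red where called higher and open where not called, and grey bars span the values with each library left out in turn; Nkx2-5 lies highest at 1.96 and Tbx5 lowest at -0.40.

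Shares within the Mef2 family did not pass their tests either. Mef2d made up 63.8%, 60.1% and 65.9% of the summed FPKM of the 3 genes in the flox/flox hearts and 72.6%, 72.6% and 68.8% in Nat10-CKO hearts. Mef2a took 34.1%, 37.7% and 32.0% and then 25.8%, 24.7% and 28.0%. Neither share overlapped between groups, and both had an exact permutation p of 0.1 (two-sided, adjusted p = 0.125). With Mef2c at most 3.13% of the sum, the Mef2a and Mef2d shares nearly mirror each other and are not separate results. The share of Mef2c, 2.05% to 2.29% and 1.62% to 3.13%, overlapped (exact permutation p = 0.6, adjusted p = 0.6). The size of every share rests on the deposited lengths, that of Mef2a being 1.83 and that of Mef2d 1.07 times the canonical one. Per canonical length the flox/flox means of Mef2a, Mef2c and Mef2d were 42.7, 11.5 and 46.0 FPKM and the Nat10-CKO means 39.5, 15.8 and 62.9 FPKM.

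**Figure D3:**
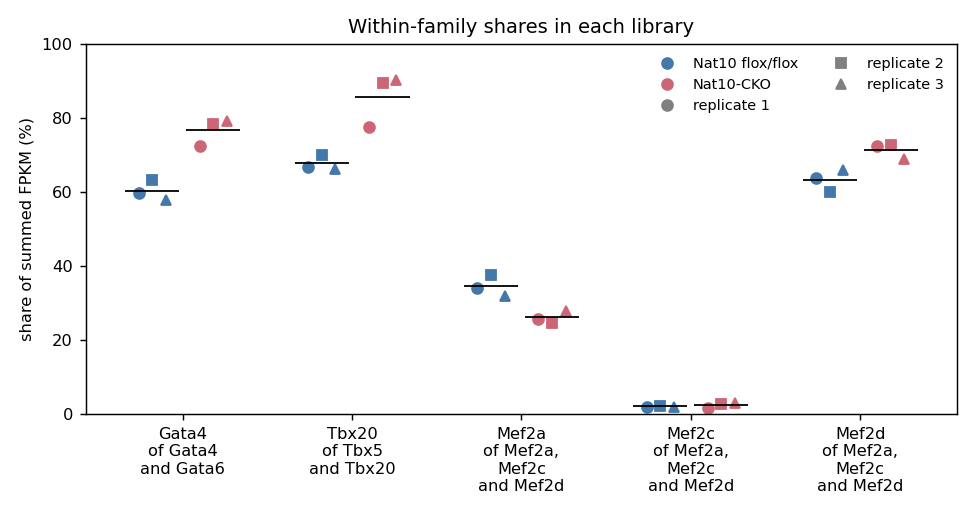
Share of each gene in the summed FPKM of its family (vertical axis, percent) in each library; blue points are Nat10 flox/flox, red points Nat10-CKO, shapes are replicate numbers and lines are group means. The Gata4, Tbx20 and Mef2d shares are higher and the Mef2a share lower in each Nat10-CKO library than in any flox/flox library.

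The order of levels differed between the groups. In the flox/flox libraries Mef2d (43.0 ± 5.69 FPKM) and Nkx2-5 overlapped at the top, Gata4 followed, Mef2a and Gata6 overlapped, Hand2 and Tbx20 overlapped, and Tbx5, Mef2c and Hand1 came last. In the Nat10-CKO libraries Nkx2-5 and Gata4 stood above Mef2d (58.8 ± 9.0 FPKM) without overlap, Hand2, Tbx20 and Gata6 overlapped at 32.0 to 33.1 FPKM, and Mef2a followed. These places rest on the deposited lengths. Per canonical length, Mef2a at 42.7 FPKM would stand above Gata4 (30.5 FPKM) in flox/flox, and at 39.5 FPKM above Hand2 (31.2 FPKM), Tbx20 (24.5 FPKM) and Gata6 (23.0 FPKM) in Nat10-CKO. Mef2c would stand above Tbx5 in both groups (11.5 against 9.93 FPKM and 15.8 against 7.62 FPKM). Across all 6 libraries the protein-coding genes whose log2 level most resembled that of Nkx2-5, the member with the highest mean, were Blk, Ftsj3, Rheb, Zc3h18 and Sf3a2 (Pearson r = 0.9987 to 0.9992, n = 6). With 2 separated groups, such values mostly restate the difference between the groups.

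Neighbours of the 10 genes did not all move with them. Gata6os, an antisense RNA whose model overlaps Gata6 by 58 bases, was 5.53, 5.63 and 6.14 FPKM in flox/flox hearts and 12.1, 7.32 and 12.4 FPKM in the Nat10-CKO libraries. Its log2 fold change was 0.75 ± 0.19 (SE, limma adjusted p = 0.0219), and the call was lost with 4 of the 6 libraries left out 1 at a time (flox/flox replicates 1, 2 and 3 and Nat10-CKO replicate 3, adjusted p = 0.0551 to 0.0691). It was also lost without both libraries that stand apart (0.096), with no filter on low values (0.0599), in 2 of the rescalings (0.0538 and 0.0549) and with array weights, where the log2 fold change was 0.38 (adjusted p = 0.0761). Lysmd4, 2694 bases from Mef2a, fell from 4.43 ± 0.279 to 2.76 ± 0.235 FPKM (limma adjusted p = 0.00691). An unnamed gene model 222 bases downstream of Nkx2-5 on the same strand fell from 3.96 ± 0.201 to 1.98 ± 0.159 FPKM (limma adjusted p = 0.00193). The libraries were directional, but no source used here says whether counting used the strand, so Gata6os and Gm5563, which lies inside Tbx5 on the other strand, are uncertain.

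Among 30 partners and other heart transcription factors, 24 were tested, 7 were higher (29.2%, beside 24.4% of all tested genes) and 4 lower (16.7%, beside 16.0%), with a median log2 fold change of 0.27. Both shares were close to those of all tested genes. Srf, the MADS-box partner of GATA4 and NKX2-5, rose 2.05-fold from 19.1 ± 2.09 to 39.2 ± 1.66 FPKM (limma adjusted p = 0.000972). Zfpm1, a GATA cofactor also known as FOG1, rose 2.13-fold to 18.3 ± 2.44 FPKM, and Smarcd3, the chromatin remodelling subunit BAF60C, rose 1.75-fold to 15.6 ± 0.763 FPKM. Ankrd1, a cardiac ankyrin repeat protein of sarcomere and nucleus, rose 7.23-fold from 313.5 ± 67.7 to 2265 ± 513.8 FPKM.

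Hopx, a homeodomain protein that does not bind DNA and opposes SRF, fell 5.37-fold, from 95.7, 76.7 and 108.4 FPKM to 19.6, 15.1 and 17.6 FPKM (limma adjusted p = 0.000278). Every Nat10-CKO library was below every flox/flox library. Tbx2, a T-box repressor of chamber genes, fell 1.85-fold from 6.06 ± 0.317 to 3.27 ± 0.296 FPKM (limma adjusted p = 0.00185). Its close relative Tbx3, named after its values were seen, fell 1.86-fold (limma adjusted p = 0.00416), so Tbx20 was higher and Tbx2 and Tbx3 lower in the same libraries. Of the 6 partners too low to test, Isl1 had 2.92 FPKM in flox/flox replicate 1 and 0 in the other 5 libraries.

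Genes that regulate MEF2 and GATA4 activity were near the background, with 4 of 19 tested members higher (21.1%, beside 24.4%) and 3 lower (15.8%, beside 16.0%), out of 22 listed. Rcan1, a calcineurin inhibitor that calcineurin itself induces, stood out at 23.7 ± 2.04 and 285.5 ± 39.2 FPKM (12.0-fold, limma adjusted p = 7.6e-05). Ep300, the acetyltransferase that modifies GATA4, rose 1.56-fold and Gsk3b, a kinase that drives GATA4 from the nucleus, 1.45-fold. Camk2g, a subunit of the kinase that phosphorylates class IIa histone deacetylases, fell 1.88-fold, Prkd2 1.46-fold and the calcineurin subunit gene Ppp3cb 1.31-fold. Prkd2 and Ppp3cb lost their calls with some single libraries left out (adjusted p up to 0.0814 and 0.0811). Gsk3b lost its call without flox/flox replicate 2 or 3 (0.0557 and 0.0526) and under every rescaling tried (0.0537 to 0.0958), where its log2 fold change was as low as 0.32. The class IIa deacetylase gene Hdac9, Prkd1 and Camk4 were under the filter and not tested. Their means were 1.38, 1.03 and 0.166 FPKM in flox/flox and 0.495, 0.631 and 0.0253 FPKM in Nat10-CKO hearts. The flox/flox mean of Camk4 came mostly from replicate 1, which held nerve cell transcripts. Camk4 was 0.402 FPKM there, 0.0556 and 0.0409 FPKM in flox/flox replicates 2 and 3, and at most 0.0293 FPKM in Nat10-CKO. Hdac9 had 1082 to 1554 reads per flox/flox library and 166 to 580 per Nat10-CKO library. The other class IIa genes of the list did not share its direction. Hdac5, at 24.1 ± 1.58 and 30.4 ± 2.1 FPKM, was narrowly called higher (limma adjusted p = 0.0491). Hdac4 and Hdac7 were not called (log2 fold changes of -0.19 and 0.055, limma adjusted p = 0.342 and 0.789).

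Of 40 textbook targets of the 10 factors, 39 were tested, 13 were higher (33.3%, beside 24.4% of all tested genes) and 9 lower (23.1%, beside 16.0%), with a median log2 fold change of 0.080. The targets thus included strong differences in both directions while their median was close to that of all tested genes. Nppa and Nppb, the natriuretic peptide genes activated by GATA4, NKX2-5 and TBX5, were 53.6-fold and 44.7-fold higher, Myh7 48.5-fold, and the MEF2 targets Xirp2 and Xirp1 41.6-fold and 3.70-fold. Kcnj3, a subunit of the acetylcholine-gated potassium channel, fell from 5.72 ± 0.649 to 0.558 ± 0.243 FPKM (limma adjusted p = 0.000287). The list overlaps the stress genes of heart muscle, and its members were chosen with earlier results of these libraries known.

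**Figure D4:**
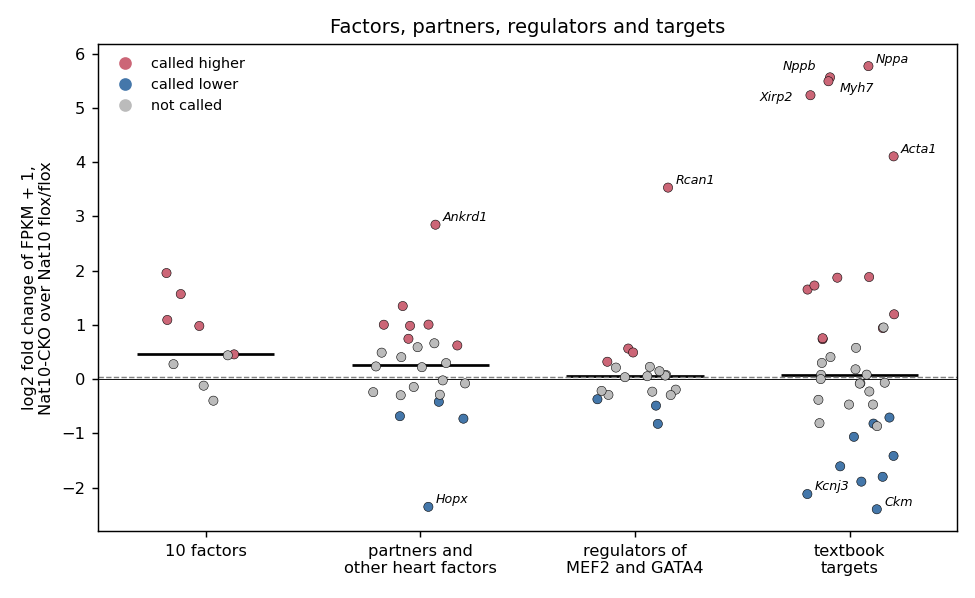
Log2 fold change of FPKM + 1, Nat10-CKO over Nat10 flox/flox (vertical axis), for the tested genes of 4 lists. Each point is a gene, coloured by its limma call at an adjusted p under 0.05; black lines are list medians (0.46, 0.27, 0.055 and 0.080), the dashed line is the median of all tested genes at 0.035, and genes beyond 2 in either direction are named.

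In RNA of bulk heart tissue, a different proportion of cells of a type and a different amount of RNA per cell cannot be told apart. The counts of called markers that follow stand beside 24.4% of all tested genes called higher and 16.0% called lower. Of the 10 cardiomyocyte markers, 0 were higher and 2 lower, with a median log2 fold change of -0.21, while Nkx2-5, Gata4, Tbx20 and Hand2 were higher in the same libraries. The 10 endothelial markers were lower for 8 and higher for 0, with summed levels of 419.5 to 497.5 and 277.9 to 297.1 FPKM. Mural cell markers were lower for 5 of 9 tested (summed 334.1 to 384.8 and 187.1 to 253.8 FPKM), and erythroid markers for 5 of 5 (688.9 to 1781 and 423.4 to 534.8 FPKM). The 10 fibroblast markers were higher for 1 and lower for 1, at 510.7 to 550.0 and 477.8 to 885.0 FPKM, with Nat10-CKO replicate 3 lowest. Among the 3 Nat10-CKO libraries, Gata4 (128.0 FPKM), Tbx20 (35.5 FPKM) and Gata6 (33.7 FPKM) were highest in that replicate. Hand2 (31.3 FPKM) was lowest there and Nkx2-5 (170.4 FPKM) in between. The 10 macrophage markers were called in neither direction. The part of these cell types in the levels of the factors was not tested.

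Without both libraries that stand apart, Nkx2-5, Gata4, Tbx20 and Hand2 were called higher, Gata6 was not (adjusted p = 0.0963) and Tbx5 was called lower (log2 fold change -0.77, limma adjusted p = 0.00853), beside 24.4% of all tested genes higher and 15.9% lower. Rescaling to a common read total, with the mitochondrially encoded genes left out or over protein-coding genes, moved the median log2 fold change of all tested genes from 0.035 to -0.12 and -0.13. Higher calls then made up 17.6% and 17.4% of tested genes and lower calls 24.6% and 24.8%. Under these rescalings Nkx2-5, Gata4, Tbx20 and Hand2 were still called higher. Mitochondrially encoded genes held 16.55% to 18.3% of reads per flox/flox library, against 7.56% to 9.26% per Nat10-CKO library. With those reads left out, the remaining genes were thus scaled up more in flox/flox.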

How the data were processed

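Poly-T selected messenger RNA was sequenced as directional, 150 bp read pairs, per the labels' protocols. The authors aligned reads to GRCm39 with HISAT2 2.2.1 and counted them with featureCounts 2.0.6, per the series' design text. CASAVA and DESeq2 1.42.0 appear too, per the submitters' processing notes. The deposited table gives FPKM in 1 column per library beside gene positions and lengths. FPKM times length came in whole steps for 100% of values (tolerance 0.01 read), so reads per gene could be recovered.

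The 2 groups of 3 libraries were tested in limma 3.58.1 under R 4.3.3 (lmFit, eBayes with trend) on log2(FPKM + 1) over genes with a mean of at least 1 FPKM, two-sided, with Benjamini-Hochberg adjustment over all tested genes. Log2 fold changes on this scale understate the changes of low genes. Folds are ratios of mean FPKM. Shares were compared by exact permutation. The test was checked on simulated reads. The named genes are all 10 members, up to 6 of each list of factors, regulators and targets with the smallest adjusted p, the 2 highest of each marker list, neighbours within 10 kb, and the 5 genes most like the highest member; others were named after their values were seen. The members and lists were chosen with earlier results of these data known. Alternatives covered the pseudocount, filter, scaling, trend, array weights, voom on recovered reads, a replicate block and libraries left out. Plots used matplotlib 3.10.9 (Python 3.11.15).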

Additional observations from a re-analysis of the deposited data

How the results depend on the processing

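With any single library left out, 4 to 5 of the 10 genes were called higher and 0 to 1 lower (Tbx5, without Nat10-CKO replicate 1). Of all 11996 tested genes, 2126 to 3123 were then called higher and 1207 to 1924 lower (16.0% without Nat10-CKO replicate 1). Among the 10 genes, lower calls were 2 with array weights (Tbx5 and Mef2a), beside 25.1% of all tested genes. They were 1 without both libraries that stand apart, beside 15.9%. Nkx2-5, Gata4, Tbx20 and Hand2 were called higher under every fit tried, with log2 fold changes of 1.76 to 2.02, 1.36 to 1.71, 0.87 to 1.17 and 0.75 to 1.09. Hand2, at 0.98 in the main fit, fell short there of a minimum log2 fold change of 1, and Tbx20 did so under some other fits. With libraries left out, the log2 fold change of Mef2a ran from -0.27 (without both that stand apart) to 0.019, a turn of sign, without Nat10-CKO replicate 2, and the cause was not tested.

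Among the 24 tested partners, 11 were higher with array weights, beside 3932 of all 11996 tested genes. With a minimum mean of 5 FPKM, 1 of the 15 partners tested was lower, beside 1159 of all 7224 genes tested. Of the 19 tested regulators of MEF2 and GATA4, 2 were higher and 6 lower with mitochondrially encoded genes left out or protein-coding reads rescaled. All tested genes were then higher for 17.6% and 17.4% and lower for 24.6% and 24.8%. Under quantile normalization 2 regulators were higher and 5 lower, beside 2514 and 2254 of all 11996 tested genes. With protein-coding FPKM rescaled (chosen after seeing the data) 2 were higher and 5 lower, beside 2304 and 2535 of 12018. With single libraries left out the regulators ranged from 2 to 4 higher and 1 to 4 lower, beside 2126 to 3123 and 1207 to 1924 of all tested genes. Of all tested genes 1924 were called lower, against 1159 with a minimum mean of 5 FPKM, 2954 without mitochondrially encoded genes, 2989 with protein-coding reads rescaled, 3007 with array weights, and 1207 to 1924 with single libraries left out (1207 without flox/flox replicate 2, 1212 without replicate 3). Apart from the smaller number of genes at the higher minimum and the unequal mitochondrial share given above, the cause of these shifts was not tested.

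With the replicate number as a block, 5 of the 10 genes were called higher and 0 lower, and 2666 and 1724 of all tested genes. Ppp3cb (adjusted p = 0.0515) and Hand2os1 (0.063) lost their calls. Same-numbered libraries deviated together only weakly (correlations of 0.0649, 0.0373 and 0.105), and the labels do not pair them. With 3 libraries per group, p-values cover the spread between these libraries only, and no permutation p for a single share can go below 0.1.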
